A study of Capra hircus with 9 samples.

Results

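Aminoacyl-tRNA synthetases, the enzymes that load each tRNA with its amino acid, and the 3 scaffold proteins of the complex that holds some of them were followed in the rumen epithelium of goats. Members were taken by gene symbol: names of 1 letter followed by ARS or ARS2, and EPRS, FARSA, FARSB, AIMP1, AIMP2 and EEF1E1. Of 18383 gene names in the files, 39 were members, and each of them was listed in all 9 libraries. They comprised 20 cytosolic synthetase genes, 3 scaffold genes and 16 mitochondrial synthetase genes with names ending in ARS2. HARS2 was not analysed here. RNA sequencing covered goats aged 4 months on 3 kinds of concentrate diet, labelled HC, MC and LC, with 3 libraries per diet. What the letters stand for is not given in the labels, and no group carried a genotype or other treatment label. Whether each library is a different goat is not stated, and the p-values therefore measure only the spread between these samples.

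Each synthetase recognises its amino acid and its tRNAs and joins them at the cost of ATP, which supplies the ribosome with charged tRNA. The cytosol and the mitochondrion run separate protein synthesis, so most amino acids have a pair of enzymes encoded by different nuclear genes, and GARS and KARS are known to serve both compartments. In animals a group of cytosolic synthetases (DARS, EPRS, IARS, KARS, LARS, MARS, QARS and RARS) is held in the multisynthetase complex by AIMP1, AIMP2 and EEF1E1, while the others act outside it. Genes of several cytosolic synthetases are known targets of ATF4, the transcription factor of the amino acid response. The rumen epithelium is a stratified epithelium that renews itself continuously and absorbs the products of microbial fermentation.

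Levels are FPKM as deposited (fragments scaled by transcript length and by mapped fragments), so they may be compared between genes. Log2 changes are on the scale log2(FPKM + 1), given ± SE, and a change is called higher or lower where the adjusted p of limma over 11668 genes was under 0.05. All 39 members passed the filter of at least 1 FPKM in at least 3 libraries. Of 7 markers of basal epithelium 6 were listed, and they summed to 3969 to 6465 FPKM per library, mostly KRT5 and KRT14. Single markers differed between diets by limma. ITGA6 was lower in HC than in LC (adjusted p = 0.00155) and MC (0.00318), and COL17A1 was lower in MC than in LC (0.0062). TP63 was higher in HC than in MC (0.0327), and KRT5, KRT14 and ITGB4 passed in no comparison. The 12 smooth muscle markers summed to 1277 to 3949 FPKM in MC, to 2614 and 1390.2 FPKM in LC1 and LC2, to 65.6 FPKM in LC3 and to 124 to 160 FPKM in HC, and fewer cells of a type and less RNA per cell cannot be told apart in such bulk tissue. Markers of macrophages and dendritic cells summed in LC to 63.2 to 71.1, in MC to 19.3 to 28.03 and in HC to 31.1 to 40.5 FPKM. LC1 had the smallest sum of FPKM (755624, against 1051183 in the largest) and the lowest value of its diet for 36 of the 39 members, and HC1 was the lowest of its diet for 29. The median gene lay at -0.10 on the log2 scale in HC minus LC and in HC minus MC and at -0.0067 in MC minus LC. Median-of-ratios scaling moved these medians to 0.042, 0.013 and 0.02, and changed the calls over all genes from 909 higher and 2030 lower to 1623 and 1175 in HC minus LC, and from 933 and 1984 to 1501 and 1230 in HC minus MC. Every change that involves HC carries this shift.

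KARS, the lysine enzyme of both compartments, was the most abundant cytosolic member, and its levels overlapped between the diets. It stood in LC1 to LC3 at 209.9, 292 and 272, in MC1 to MC3 at 183, 204 and 226 and in HC1 to HC3 at 211, 379.9 and 313 FPKM, and no comparison passed the test (adjusted p = 0.0934 in HC minus MC, the smallest of the 3). EEF1E1 had the lowest mean over all libraries among cytosolic members, 9.43 FPKM, and the median cytosolic member stood at 32.7 FPKM. The median mitochondrial member was lower, at 10.1 FPKM, and the lowest mean was that of the proline enzyme PARS2, 3.16 FPKM. PARS2 was listed in LC at 3.32, 3.46 and 4.36, in MC at 2.68, 2.94 and 3.66 and in HC at 2.51, 2.46 and 3.03 FPKM. The highest mean was that of the cysteine enzyme CARS2, listed in LC at 222, 296 and 266, in MC at 146, 224 and 229 and in HC at 145, 201 and 225 FPKM. The isoleucine enzyme IARS2, with a mean of 36.7 FPKM, was also above the median cytosolic member. The CARS2 locus in the files (chromosome 12, 80616743 to 80617809) spans 1067 bases, the shortest of the 39 against a median of 26750, so its level rests on a short stretch. Within a diet the coefficient of variation of a member had a median of 16.3% in LC, 11.0% in MC and 9.88% in HC.

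**Figure D1:**
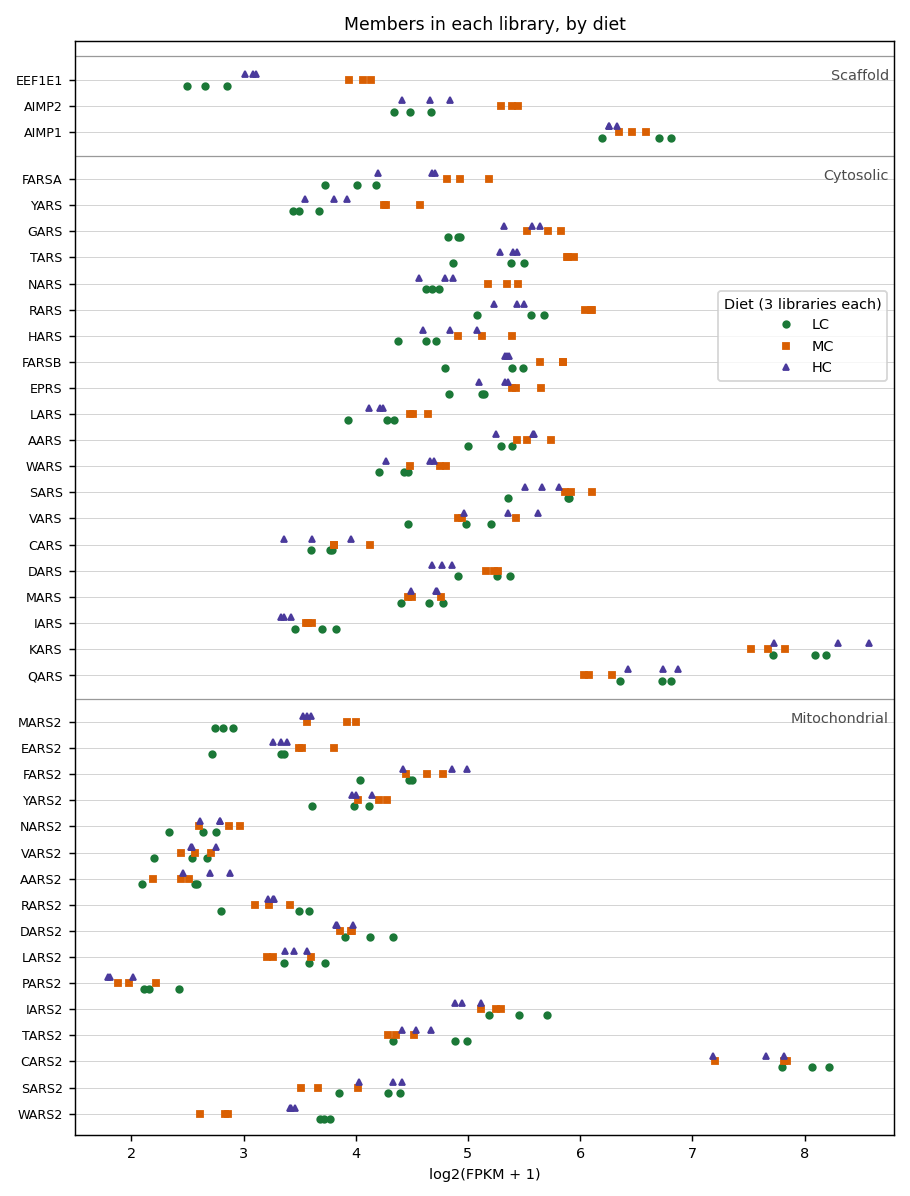
Level of each of the 39 members in each library, as log2(FPKM + 1) on the x axis, with 1 point per library and the symbols marking the diet. Within each block the genes are ordered by their change in MC minus LC, and for EEF1E1, AIMP2, FARSA and YARS the 3 MC points lie to the right of all 6 others.

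Most cytosolic members had their highest mean in MC, and most mitochondrial members did not. The mean was highest in MC for 17 of 23 cytosolic members, in HC for 4 and in LC for 2, where 38.5%, 20.4% and 41.1% of all tested genes had their highest mean. For the 16 mitochondrial members the highest mean fell in LC for 8, in MC for 4 and in HC for 4. In MC minus LC 12 of 23 cytosolic members were higher (52.2%, against 16.2% of all tested genes) and 1 was lower (4.35%, against 17.1%, with 33.4% called in either direction). Of the mitochondrial members, 2 of 16 were higher and 1 was lower in that comparison. The median change was 0.36 for cytosolic and -0.12 for mitochondrial members, against -0.0067 for all genes. Over the alternative analyses and the libraries left out, the cytosolic median ran from 0.25 to 0.47 and the mitochondrial one from -0.35 to 0.0080, positive only with the smooth muscle covariate. The difference between the compartments was not tested.

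Between HC and MC the cytosolic calls were mostly lower in HC. In that comparison 7 of 23 cytosolic members were lower (30.4%, against 17% of all tested genes, 25% in either direction) and 1 was higher (4.35%, against 8%), while by limma 2 of 16 mitochondrial members were higher and 0 lower (0 lower at an unadjusted p under 0.05). The median cytosolic change was -0.30, against -0.10 for all genes, and with median-of-ratios scaling it was -0.16, with 5 lower and 2 higher. In HC minus LC 3 of 23 cytosolic members were higher (7.79% of all tested genes) and 1 was lower (17.4% of all, 25.2% in either direction), with 3 and 0 after median-of-ratios scaling. There 1 mitochondrial member was higher and 1 lower, with 2 and 0 after that scaling. The median change in HC minus LC was 0.13 for cytosolic and 0.020 for mitochondrial members, against -0.10 for all genes. These medians were not stable: they were 0.30 and 0.18 with median-of-ratios scaling, -0.0017 and -0.16 with the smooth muscle covariate, 0.032 and -0.14 without LC1, 0.20 and 0.12 without LC2, 0.13 and 0.12 without LC3, and 0.041 and -0.021 without HC2. With all 3 diets together 15 of 39 members passed limma's F test (38.5%, against 45.2% of all genes), 13 cytosolic and 2 mitochondrial. The 3 comparisons share their libraries, so their counts are not independent of each other.

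The same order was seen in single libraries. All 3 MC libraries lay above all 6 others for 10 of 23 cytosolic members (15.1% of all tested genes) and below them for 1, QARS (8.46% of all). All 3 LC libraries lay below all others for 3 cytosolic members, EEF1E1, FARSA and GARS (8.57% of all), and above them for 0 (14.2% of all). All 3 HC libraries lay below the rest for 2, DARS and IARS (11.8% of all), and above them for 0 (4.23% of all). Each of these patterns held for 1 of 16 mitochondrial members (EARS2 with MC above, WARS2 with MC below and LC above, MARS2 with LC below, IARS2 with HC below), and HC above for 0. Taking the diets in pairs, the libraries of 15 of 23 cytosolic members did not overlap and were higher in MC than in LC (23.8% of all tested genes) and those of 1 were lower (23.4%). In HC against MC 1 was higher (14.7%) and 14 were lower (31.6%), and in HC against LC 3 were higher (13.3%) and 2 lower (27.4%). The mean was lowest in LC for 13 cytosolic members (27.9% of all tested genes), in HC for 7 (42.6%) and in MC for 3 (29.5%), and for 6, 4 and 6 mitochondrial members.

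**Figure D2:**
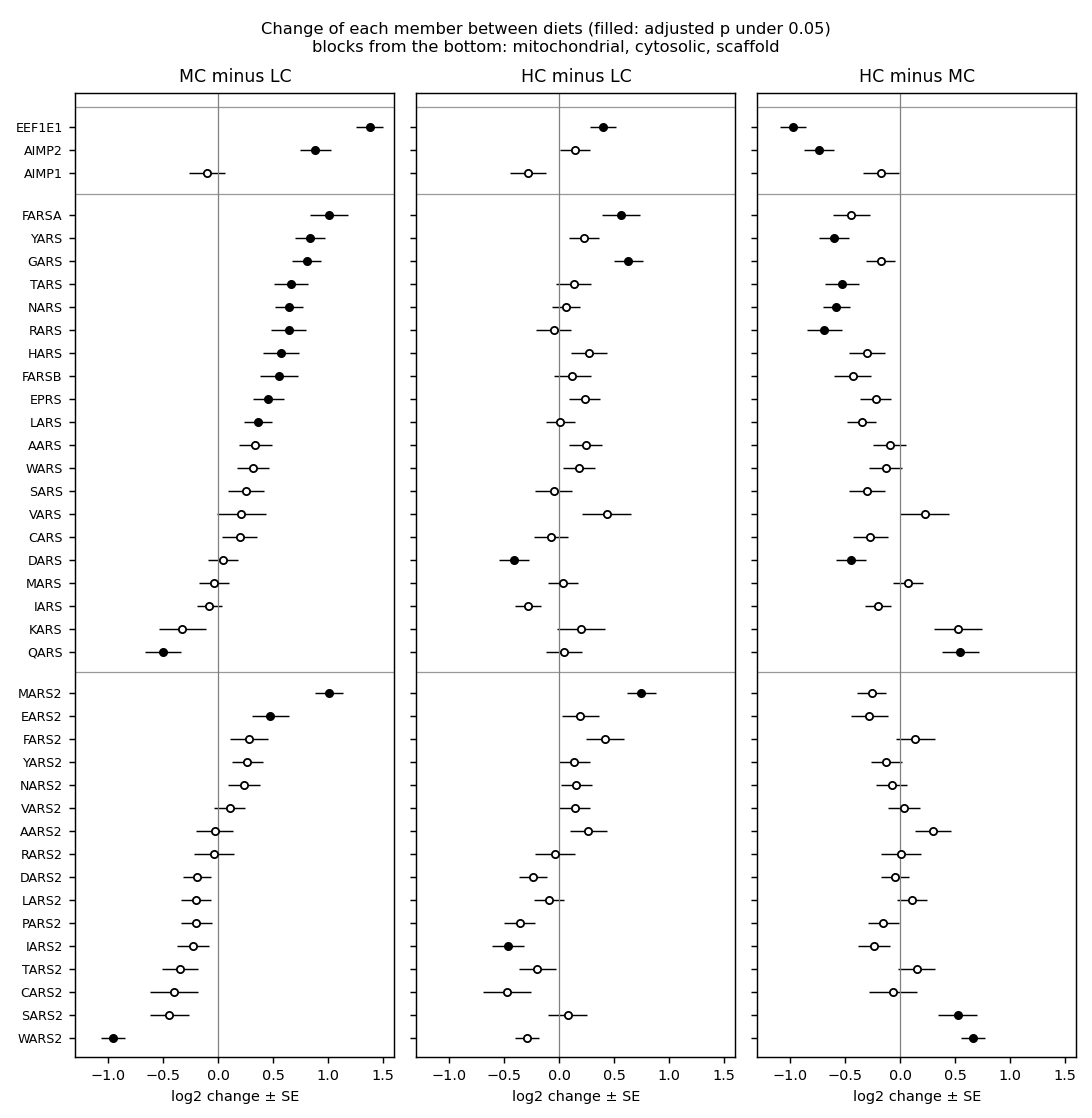
Log2 change ± SE of each member in MC minus LC, HC minus LC and HC minus MC, with mitochondrial members at the bottom, cytosolic synthetases in the middle and scaffold proteins at the top. Filled points passed the test. In MC minus LC these are 12 cytosolic and scaffold members on the right and 1 on the left. In HC minus LC they are 3 on the right and 1 on the left, and in HC minus MC 1 on the right and 7 on the left. Of the mitochondrial members 2 are filled on the right and 1 on the left in MC minus LC. In HC minus LC they are 1 and 1, and in HC minus MC 2 and 0.

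Of the scaffold proteins, EEF1E1 and AIMP2 were higher in MC than in both other diets, and AIMP1 was not. EEF1E1 (chromosome 23, 44524884 to 44540400), the smallest part of the complex, stood in LC1 to LC3 at 4.64, 5.31 and 6.21, in MC1 to MC3 at 15.7, 16.5 and 14.3 and in HC1 to HC3 at 7.08, 7.46 and 7.61 FPKM. The diets did not overlap in any pair. EEF1E1 had the largest rise of any member in MC minus LC (log2 change 1.37 ± 0.12, limma adjusted p = 1.29e-05), fell in HC minus MC (-0.98 ± 0.12, limma adjusted p = 3.27e-04) and rose in HC minus LC (0.40 ± 0.12, limma adjusted p = 0.031). LC1 and LC2, with smooth muscle marker sums of 2614 and 1390.2 FPKM, and LC3, with 65.6 FPKM, were all below the lowest MC library for EEF1E1. The part of smooth muscle in the EEF1E1 changes was not tested. The HC minus LC call was lost without LC1, LC2, HC2 or HC3 (adjusted p = 0.0733 to 0.105), with LC3 alone (log2 change 0.22, adjusted p = 0.403) and with the smooth muscle covariate (0.30, adjusted p = 0.175).

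AIMP2 (chromosome 25, 37647192 to 37689849), which links parts of the complex, stood in LC at 19.3, 24.4 and 21.3, in MC at 41.0, 38.3 and 42.5 and in HC at 20.3, 27.6 and 24.3 FPKM. All MC libraries were above all others, and LC and HC overlapped. AIMP2 rose in MC minus LC (log2 change 0.88 ± 0.14, limma adjusted p = 6.25e-04) and fell in HC minus MC (-0.74 ± 0.14, limma adjusted p = 0.00343). Its locus in the files is shared with EIF2AK1 and ANKRD61, so its value is uncertain. EIF2AK1, the haem-regulated eIF2alpha kinase, was at 7.59, 7.87 and 7.17 FPKM on average in LC, MC and HC and passed in no comparison. AIMP1, the third scaffold protein, stood in LC at 72.3, 103 and 111, in MC at 80.3, 94.9 and 86.9 and in HC at 75.7, 75.4 and 79.6 FPKM, and passed in no comparison.

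**Figure D3:**
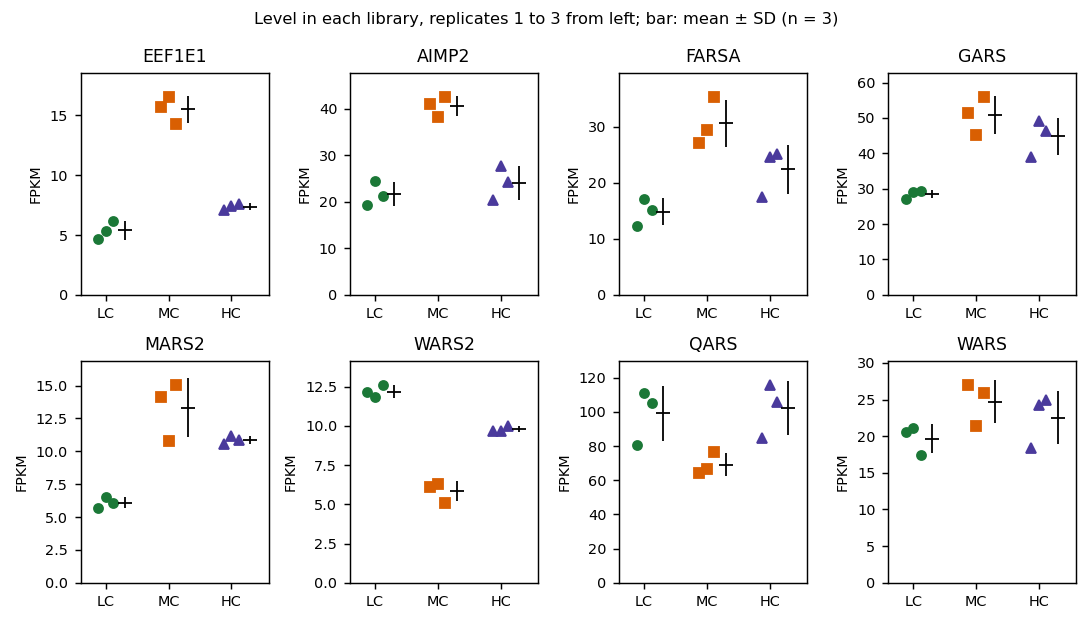
FPKM of 8 members in each library, replicates 1 to 3 from left within a diet, with the mean ± SD (n = 3) as a bar beside them and axes that start at 0. EEF1E1, AIMP2 and FARSA are highest in MC, GARS and MARS2 are low in LC, WARS2 and QARS are lowest in MC, and WARS overlaps between LC and HC.

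Of the 12 cytosolic synthetase genes outside the complex, a grouping made from background knowledge after the values were seen, 7 rose in MC minus LC (58.3%, against 16.2% of all tested genes) and 0 fell by limma (against 17.1%, with 0 lower at an unadjusted p under 0.05). Their median change was 0.56, and all 12 estimates were above 0. FARSA, the catalytic subunit of the phenylalanine enzyme, had the largest rise. It stood in LC at 12.3, 17.1 and 15.1, in MC at 27.1, 29.5 and 35.3 and in HC at 17.4, 24.6 and 25.2 FPKM. The diets did not overlap in any pair. FARSA rose in MC minus LC (log2 change 1.004 ± 0.17, limma adjusted p = 0.00101) and in HC minus LC (0.56 ± 0.17, limma adjusted p = 0.0326), and in HC minus MC it was -0.45 ± 0.17 (limma adjusted p = 0.0748). Its partner subunit FARSB stood in LC at 26.8, 41.0 and 44.0, in MC at 56.4, 56.7 and 49.0 and in HC at 39.2, 39.7 and 40.1 FPKM. All MC libraries were again above all others, and FARSB rose in MC minus LC (0.55 ± 0.17, limma adjusted p = 0.0262).

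GARS, the glycine enzyme of both compartments, was low in LC and high in both other diets. It stood in LC at 27.2, 29.1 and 29.4, in MC at 51.4, 45.1 and 55.9 and in HC at 38.8, 49.1 and 46.4 FPKM. LC was below all 6 other libraries, and MC and HC overlapped. GARS rose in MC minus LC (log2 change 0.80 ± 0.13, limma adjusted p = 8.28e-04) and in HC minus LC (0.63 ± 0.13, limma adjusted p = 0.00566), and did not pass in HC minus MC (-0.18 ± 0.13, limma adjusted p = 0.335). With LC3 as the only LC library the change in HC minus LC was 0.58 (limma adjusted p = 0.0705).

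YARS, the tyrosine enzyme, stood in LC at 9.83, 11.7 and 10.3, in MC at 18.3, 18.0 and 22.8 and in HC at 10.7, 14.1 and 13.0 FPKM. NARS, the asparagine enzyme, stood in LC at 23.7, 24.6 and 25.8, in MC at 39.7, 35.2 and 42.5 and in HC at 22.7, 28.1 and 26.8 FPKM. TARS, the threonine enzyme, stood in LC at 28.1, 40.7 and 44.2, in MC at 60.6, 57.9 and 58.5 and in HC at 41.2, 38.1 and 42.4 FPKM. In each of these 3 genes every MC library was above every other library, while LC and HC overlapped. YARS rose by 0.83 ± 0.14 (limma adjusted p = 8.44e-04), NARS by 0.64 ± 0.12 (limma adjusted p = 0.00235) and TARS by 0.66 ± 0.16 (limma adjusted p = 0.00778) in MC minus LC on the log2 scale. In HC minus MC they fell, by 0.61 ± 0.14 (limma adjusted p = 0.00871), 0.58 ± 0.12 (limma adjusted p = 0.00678) and 0.53 ± 0.16 (limma adjusted p = 0.0306) on the log2 scale. The TARS call in HC minus MC was lost without any of the MC or HC libraries (adjusted p = 0.0531 to 0.0979) and after median-of-ratios scaling (0.0881). With the smooth muscle covariate the TARS change in HC minus MC was -0.86 (adjusted p = 0.0281), and the YARS change was as large (-0.65) with an adjusted p of 0.0801.

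HARS, the histidine enzyme, stood in LC at 19.7, 25.2 and 23.8, in MC at 29.2, 33.9 and 41.0 and in HC at 23.2, 27.7 and 32.8 FPKM. It rose in MC minus LC (log2 change 0.57 ± 0.16, limma adjusted p = 0.019), and MC and HC overlapped. The remaining free enzymes AARS, CARS, SARS, VARS and WARS, for alanine, cysteine, serine, valine and tryptophan, had changes of 0.19 to 0.34 in MC minus LC and did not pass. WARS is known to be induced by interferon in many cells. It stood in LC at 20.5, 21.1 and 17.5, in MC at 27.0, 21.3 and 25.8 and in HC at 18.3, 24.3 and 25.0 FPKM, and passed in no comparison (limma adjusted p = 0.126 in MC minus LC, 0.399 in HC minus LC and 0.532 in HC minus MC). Of 24 listed interferon response genes 15 were tested over the same libraries. In HC minus LC 14 of the 15 fell (93.3%, against 17.4% of all tested genes). In MC minus LC 11 of the 15 fell (73.3%, against 17.1%). The interferon-induced GTPase MX1 averaged 19.1 FPKM in LC and fell to 1.95 in MC (log2 change -2.77) and 1.21 in HC (-3.19), and the peptide transporter subunit TAP1 averaged 12.7 FPKM in LC and fell to 2.98 in MC (-1.78) and 5.56 in HC (-1.06), each past limma's test. Marker sums of macrophages and dendritic cells were also higher in every LC library (63.2 to 71.1 FPKM) than in any MC or HC library (19.3 to 40.5 FPKM), and their part in these changes was not tested.

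The 8 synthetase genes of the multisynthetase complex did not share a direction. In MC minus LC 3 rose (37.5%, against 16.2% of all tested genes), 1 fell (12.5%, against 17.1%) and 4 did not pass, with a median of 0.00015 against 0.56 for the enzymes outside the complex, a difference that was not tested. RARS, the arginine enzyme, stood in LC at 32.8, 46.2 and 50.3, in MC at 64.8, 67.4 and 67.6 and in HC at 44.3, 36.6 and 42.2 FPKM. All MC libraries were above the others, and RARS rose in MC minus LC (log2 change 0.64 ± 0.16, limma adjusted p = 0.00948) and fell in HC minus MC (-0.69 ± 0.16, limma adjusted p = 0.00958). Its locus is shared with LOC102170512, LOC102171062 and ZFYVE16, so the RARS value is uncertain. ZFYVE16 fell in MC minus LC (-0.39 ± 0.14, limma adjusted p = 0.0453). EPRS, the joint enzyme for glutamate and proline, stood in LC at 27.4, 34.0 and 34.2, in MC at 41.9, 40.9 and 49.1 and in HC at 33.2, 39.2 and 40.0 FPKM, and rose in MC minus LC (0.45 ± 0.14, limma adjusted p = 0.0248). LARS, the leucine enzyme, stood in LC at 14.2, 18.4 and 19.2, in MC at 21.4, 21.7 and 24.0 and in HC at 16.4, 17.5 and 17.9 FPKM, and rose in MC minus LC (0.36 ± 0.13, limma adjusted p = 0.0476). For both genes all MC libraries were above all others.

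QARS, the glutamine enzyme, had the opposite order, with its lowest values in MC. It stood in LC at 80.8, 111 and 105, in MC at 64.5, 66.5 and 76.6 and in HC at 84.8, 116 and 106 FPKM. All MC libraries were below all 6 others. QARS fell in MC minus LC (log2 change -0.50 ± 0.17, limma adjusted p = 0.0361) and rose in HC minus MC (0.55 ± 0.17, limma adjusted p = 0.0333). With the smooth muscle covariate the change was -0.42 in MC minus LC (adjusted p = 0.0996) and 0.35 in HC minus MC (adjusted p = 0.413), so neither call was kept. The smooth muscle marker sums were 2825, 3949 and 1277 FPKM in MC1 to MC3, 124 to 160 FPKM in HC and 65.6 to 2614 FPKM in LC. The covariate, the mean log2 level of these markers, ran from 2.83 to 3.2 in HC and from 5.76 to 7.28 in MC. It did not overlap between these diets, so a call lost there does not separate smooth muscle from diet. Calls over all genes in HC minus MC went from 2917 to 1039 with the covariate. The part of smooth muscle in the QARS change was not tested. Without MC1, MC2, HC2 or HC3 the call in HC minus MC was lost (adjusted p = 0.105 to 0.122), and without LC2, LC3, MC1, MC2 or HC3 that in MC minus LC (0.0544 to 0.127).

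DARS, the aspartate enzyme, was lowest in HC. It stood in LC at 29.1, 37.4 and 40.5, in MC at 36.6, 34.7 and 37.6 and in HC at 26.3, 24.6 and 28.0 FPKM. All HC libraries were below all others, and DARS fell in HC minus LC (log2 change -0.41 ± 0.14, limma adjusted p = 0.0438) and in HC minus MC (-0.45 ± 0.14, limma adjusted p = 0.0318). Both calls were lost after median-of-ratios scaling (adjusted p = 0.194 and 0.105), the first without any library but LC1 (0.0557 to 0.146) and the second without any MC or HC library (0.0579 to 0.104). IARS, the isoleucine enzyme, was between 9.10 and 13.2 FPKM in all libraries, and MARS, the methionine enzyme, between 20.1 and 26.4 FPKM, and neither passed in any comparison. The MARS locus is shared with DDIT3, a transcription factor of the stress response, so the MARS value is uncertain. DDIT3 fell in MC minus LC from 13.3 to 7.38 FPKM (log2 change -0.77 ± 0.18, limma adjusted p = 0.00697).

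Among calls in MC minus LC, those of EEF1E1, AIMP2, FARSA, GARS, YARS and NARS held when each library was left out and with LC3 as the only LC library, which left 6 cytosolic calls in place of 13. An LC arm of 1 library takes its spread from MC and HC and is less precise. A call lost there does not by itself show a smaller change. With LC3 alone the calls of RARS, TARS, HARS, FARSB, EPRS, LARS and QARS were lost. The log2 changes of RARS (0.40), TARS (0.41), FARSB (0.29) and LARS (0.21) were then smaller by over 1.5 times than with 3 LC libraries. Those of HARS (0.52) and EPRS (0.35) were smaller by less, and that of QARS (-0.60) was larger. Without LC1 the changes of FARSB (0.34, adjusted p = 0.0354) and LARS (0.24, adjusted p = 0.116) were also smaller by over 1.5 times. The HARS call was also lost without LC1, MC2 or MC3 (adjusted p = 0.0503 to 0.0771), that of FARSB without MC1 or MC2 (0.0827 and 0.0845), that of EPRS without LC1, MC1 or MC3 (0.0511 to 0.0926) and that of LARS without any library but LC3 (0.0519 to 0.136). The FARSA call in HC minus LC was lost without LC1, LC3, HC2 or HC3 (0.0562 to 0.129), with LC3 alone (log2 change 0.52, adjusted p = 0.175) and with the smooth muscle covariate (0.48, adjusted p = 0.119), changes close to the 0.56 of all libraries. With only the 2 diets compared the changes were the same, and the calls of DARS, EEF1E1, FARSA and IARS2 in HC minus LC (adjusted p = 0.0538 to 0.0881) and of EARS2, FARSB and LARS in MC minus LC (0.0502 to 0.0795) were lost.

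Most mitochondrial synthetases did not differ past the test, and the methionine and tryptophan enzymes moved in opposite directions. MARS2 (chromosome 2, 85491421 to 85493660) stood in LC at 5.69, 6.51 and 6.03, in MC at 14.1, 10.8 and 15.0 and in HC at 10.6, 11.1 and 10.9 FPKM. LC was below all 6 other libraries, and MC and HC overlapped. MARS2 rose in MC minus LC (log2 change 1.007 ± 0.13, limma adjusted p = 1.62e-04) and in HC minus LC (0.75 ± 0.13, limma adjusted p = 0.00177). WARS2 (chromosome 3, 21966039 to 22068265) stood in LC at 12.1, 11.8 and 12.6, in MC at 6.12, 6.27 and 5.09 and in HC at 9.65, 9.69 and 10.0 FPKM. The diets did not overlap in any pair. WARS2 fell in MC minus LC (-0.95 ± 0.11, limma adjusted p = 7.53e-05) and rose in HC minus MC (0.66 ± 0.11, limma adjusted p = 0.00177), and was -0.29 ± 0.11 in HC minus LC (limma adjusted p = 0.071). The called changes of MARS2 and WARS2 held in all 21 alternatives, the 9 analyses without 1 library included.

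The other mitochondrial calls were near the threshold. EARS2, the glutamate enzyme, stood in LC at 5.56, 9.27 and 9.06, in MC at 10.5, 10.3 and 13.0 and in HC at 8.59, 9.06 and 9.45 FPKM, and rose in MC minus LC (log2 change 0.47 ± 0.17, limma adjusted p = 0.0483). LC1 was its lowest library. The EARS2 change was 0.26 without LC1 (adjusted p = 0.131), 0.28 with LC3 alone (adjusted p = 0.283) and 0.24 with library weights (adjusted p = 0.0926), and the call was lost in 7 alternatives besides those without 1 library. SARS2, the serine enzyme, stood in LC at 13.4, 20.0 and 18.5, in MC at 10.4, 11.6 and 15.2 and in HC at 15.3, 20.2 and 19.1 FPKM, and rose in HC minus MC (0.52 ± 0.18, limma adjusted p = 0.0488). With the smooth muscle covariate the SARS2 change was 0.27 (adjusted p = 0.558). IARS2, the isoleucine enzyme, stood in LC at 35.4, 42.7 and 51.3, in MC at 37.0, 33.6 and 38.2 and in HC at 33.6, 28.4 and 29.8 FPKM, and fell in HC minus LC (-0.47 ± 0.15, limma adjusted p = 0.0345), a call that median-of-ratios scaling ended (0.146). Its locus is shared with RAB3GAP2 (-0.28 ± 0.11 in HC minus LC, limma adjusted p = 0.0774), so the IARS2 value is uncertain. The EARS2 call was lost without any library but LC2 and LC3 (adjusted p = 0.0566 to 0.159), that of SARS2 without LC2, LC3, MC1, MC2, HC2 or HC3 (0.0513 to 0.176) and that of IARS2 without LC2, LC3, MC1, HC2 or HC3 (0.051 to 0.122).

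The remaining 11 mitochondrial members passed in no comparison. Their changes in MC minus LC ran from -0.40 for CARS2 to 0.28 for the phenylalanine enzyme FARS2. In HC minus LC they ran from -0.47 for CARS2 (± 0.22, limma adjusted p = 0.133) to 0.42 for FARS2 (± 0.18, limma adjusted p = 0.103). PARS2 shares its locus with TTC4, so the PARS2 value is uncertain. TTC4 fell in HC minus LC (-0.48 ± 0.11, limma adjusted p = 0.00897).

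Within a library the ratio of the cytosolic to the mitochondrial enzyme for the same amino acid does not depend on how that library was scaled. Of 17 such gene pairs, in which EPRS and FARS2 occur more than once, 12 had a higher ratio in every MC library than in every LC library, 1 had a lower ratio and 4 overlapped. No share of other gene pairs was computed beside these counts. For WARS and WARS2 the ratio was 1.69, 1.78 and 1.38 in LC1 to LC3, 4.41, 3.40 and 5.07 in MC1 to MC3 and 1.90, 2.51 and 2.50 in HC1 to HC3. For TARS and TARS2 it was 1.47, 1.32 and 1.55 in LC, 3.27, 2.96 and 2.67 in MC and 2.04, 1.56 and 1.91 in HC. MARS and MARS2 were the pair with the opposite order, at 3.54, 3.72 and 4.38 in LC, 1.53, 1.95 and 1.73 in MC and 2.04, 2.28 and 2.32 in HC. Between HC and MC 10 pairs had a lower ratio in every HC library, 1 had a higher ratio and 6 overlapped, and between HC and LC 3 were higher, 2 lower and 12 overlapped. The summed FPKM of cytosolic synthetases was 1.82, 1.83 and 1.85 times that of the mitochondrial ones in LC, 2.70, 2.26 and 2.36 times in MC and 2.38, 2.61 and 2.35 times in HC. Without CARS2 the multiples were 4.32, 4.36 and 4.03 in LC, 4.82, 5.10 and 4.99 in MC and 4.26, 5.21 and 5.03 in HC. MC and HC overlapped in either form, but both forms include KARS. It stood at 183, 204 and 226 FPKM in MC, where the cytosolic sums were 899 to 1028 FPKM. In HC it stood at 211, 379.9 and 313 FPKM, with cytosolic sums of 780 to 1050 FPKM. Multiples without KARS were not computed, so the overlap may rest on this gene.

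**Figure D4:**
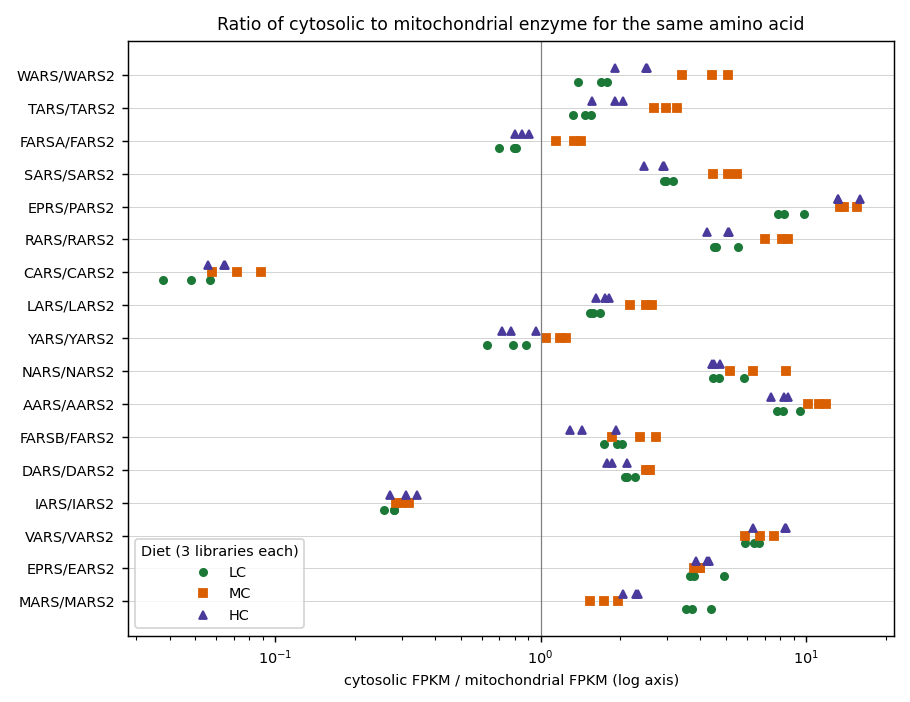
Ratio of cytosolic to mitochondrial FPKM for 17 gene pairs of the same amino acid on a log axis, with 1 point per library and the symbols marking the diet. The MC points of WARS/WARS2, from 3.40 to 5.07, lie to the right of all others, and those of MARS/MARS2, from 1.53 to 1.95, to the left.

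Of the genes that mature tRNA, those past the test were mostly higher in MC. Of 29 tested genes of this list 11 rose in MC minus LC (37.9%, against 16.2% of all tested genes), 1 fell and 17 did not pass, with a median of 0.31. In HC minus MC 13 fell (44.8%, against 17%) and 0 rose by limma (0 at an unadjusted p under 0.05), with a median of -0.39. In HC minus LC 5 fell (17.2%, near the 17.4% of all tested genes) and 0 rose by limma (0 at an unadjusted p under 0.05). POP4, a subunit of RNase P, which trims the 5′ end of tRNA, rose from 8.47 to 32.8 FPKM between LC and MC (log2 change 1.84 ± 0.16, limma adjusted p = 1.25e-05) and was at 7.55 FPKM in HC. RPP38, another subunit of RNase P, rose from 1.89 to 5.11 FPKM in MC (1.07 ± 0.14, limma adjusted p = 2.37e-04), and the tRNA ligase RTCB rose from 7.29 to 11.9 FPKM (0.63 ± 0.12, limma adjusted p = 0.00166). ELAC1, an enzyme of tRNA 3′ end processing, fell from 4.60 to 1.92 FPKM (-0.94 ± 0.13, limma adjusted p = 2.87e-04) in MC minus LC and to 1.57 FPKM in HC.

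Genes of the amino acid response passed the test in both directions. Of 25 tested genes of the ATF4 list 7 rose and 7 fell in MC minus LC (28.0% each, against 16.2% and 17.1% of all tested genes), with a median of -0.079. In HC minus MC 3 rose (12%, against 8%) and 6 fell (24.0%, against 17%), and in HC minus LC 7 rose (28.0%, against 7.79%) and 5 fell (20.0%, near the 17.4% of all). ATF4 itself was in LC at 96.9, in MC at 97.9 and in HC at 69.4 FPKM, and fell in HC minus LC (log2 change -0.47 ± 0.14, limma adjusted p = 0.0294) and in HC minus MC (-0.49 ± 0.14, limma adjusted p = 0.0252). ASNS, which makes asparagine and is a standard ATF4 target, fell in MC minus LC from 11.1 to 8.25 FPKM (-0.39 ± 0.11, limma adjusted p = 0.0173) and stood at 6.10 FPKM in HC. SLC7A5, the leucine transporter, rose from 1.57 to 7.31 FPKM in MC minus LC (1.68 ± 0.14, limma adjusted p = 1.17e-05), as did the proline synthesis gene PYCR1, from 3.62 to 11.03 FPKM (1.38 ± 0.16, limma adjusted p = 9.98e-05). EIF2AK4, the kinase that senses uncharged tRNA, was at 5.91, 5.23 and 5.76 FPKM in LC, MC and HC and did not pass in MC minus LC (limma adjusted p = 0.373), HC minus LC (limma adjusted p = 0.839) or HC minus MC (limma adjusted p = 0.526).

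Of 14 tested mitochondrial translation factors and tRNA amidation genes 3 rose (21.4%, against 16.2% of all tested genes) and 0 fell by limma in MC minus LC (1 lower at an unadjusted p under 0.05). In HC minus LC 0 passed (2 higher and 2 lower at an unadjusted p under 0.05), and in HC minus MC 3 fell (21.4%, against 17%). The 3 rises were PTCD3, a mitochondrial ribosome protein (16.7 to 27.2 FPKM, log2 change 0.68), the elongation factor TSFM (64.9 to 92.8 FPKM, 0.53) and the release factor MTRF1L (6.40 to 9.27 FPKM, 0.48). Of 5 tested genes of cytosolic elongation 1 fell in MC minus LC, EEF2K, the kinase that inhibits elongation (13.9 to 8.63 FPKM, log2 change -0.63), a share of 20.0% against 17.1% of all genes. In HC minus LC EEF2K fell (-0.69, limma adjusted p = 0.00287) and EIF5A, a factor that helps stalled ribosomes, rose (487 to 723 FPKM, 0.57, limma adjusted p = 0.0296). In HC minus MC 2 of the 5 rose (40.0%, against 8%), EEF1G (1043 to 1642 FPKM, 0.64) and EEF2 (724 to 1109.9 FPKM, 0.60). Among 9 tested proofreading and synthetase-like genes the peptidyl-tRNA hydrolase PTRH2 rose (19.3 to 37.5 FPKM, log2 change 0.96) and SEPSECS, the last enzyme of selenocysteine-tRNA synthesis, fell (8.13 to 4.90 FPKM, -0.62) in MC minus LC. The share of this list was 11.1% in each direction, below the 16.2% higher and 17.1% lower of all tested genes. PTRH2 and SEPSECS moved the other way in HC minus MC (-0.88 and 0.67, limma adjusted p = 0.0058 and 0.0113). There 11.1% fell and 11.1% rose, against 17% and 8% of all tested genes. In HC minus LC 0 of the 9 passed limma's test (0 higher and 1 lower at an unadjusted p under 0.05).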

How the data were processed

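Members, lists, tests and alternatives were chosen with earlier results of these data known. The deposited values are FPKM, a unit read from the tools and the values: per the submitters' processing notes the authors used Bowtie 1.2.0 and Cufflinks 2.2.1. No genome build, annotation or strand setting is given in the sources used here. Loci are those of the files, with starts raised by 1, since the mitochondrial COX2 and CYTB loci span their coding lengths (684 and 1140 bases) only when starts count from 0. Chromosome numbers come from the RefSeq table of ARS1.2.

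Read counts were not used here, so depth is unknown and no counting interval is given. The HC files held 11468 to 12038 empty lines and another header word, the MC and LC files 0, and any difference in how they were made cannot be told apart from the HC diet. Between 18 and 21 lines of each MC and LC file carried a number as gene name and were left out, and repeated lines of a gene (2 per file) were summed. A level of 1 FPKM or more in 3 or more libraries was reached by 11879 genes, and 211 of them lacked a value in some library and were dropped, leaving 11668. For log2(FPKM + 1), limma 3.58.1 (R 4.3.3) fitted 1 mean for each diet to all 9 libraries, with 6 residual degrees of freedom and moderated variances (trend, robust). Two-sided p-values were adjusted by Benjamini-Hochberg within each comparison, with a threshold of 0.05, and the procedure was tested on simulated data. Members named by rule were those past the test (up to 8 rises and 8 falls a comparison), the most and least abundant of each compartment, WARS, GARS and KARS. From the lists ATF4, ASNS, EIF2AK4 and up to 4 genes by adjusted p were named. The remaining members past the test, AIMP1, IARS, MARS and the genes that share a locus with a member were added after their values were seen. Alternatives changed the pseudocount (0.1 and 0.5), filter, scaling, moderation, weights, covariate, replicate block and libraries. Python 3.11.15, pandas 2.3.3, numpy 2.4.6 and matplotlib 3.10.9 made tables and figures.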

Additional observations from a re-analysis of the deposited data

How the results depend on the processing

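No called member change reversed in any alternative run. Of 1404 member changes recomputed under other settings 1318 kept their side of the threshold, 38 lost a call and 48 gained one, and of 1053 recomputed without 1 library 970 kept it, 71 lost and 12 gained one. Of 32 called changes 14 held in all 21 alternatives. Cytosolic calls in HC minus LC were 4, against 9 with library weights, 1 with only the 2 diets compared, 2 with the smooth muscle covariate, 1 with LC3 alone and 1 to 4 without 1 library. Mitochondrial calls there were 2, against 4 after quantile normalization, 7 with weights, 1 with only the 2 diets compared and 1 to 3 without 1 library. In MC minus LC the 13 cytosolic calls became 6 with LC3 alone (9 to 12 without 1 library), and the 3 mitochondrial calls became 5 after quantile normalization, 8 with weights and 2 to 5 without 1 library. In HC minus MC the 8 cytosolic calls became 13 with weights and 5 to 11 without 1 library. The 2 mitochondrial calls there became 1 with no filter on level, with unlisted values taken as 0, without trend and robust moderation, or with the smooth muscle covariate, 5 with weights, and 1 to 2 without 1 library. Members past the F test went from 15 to 28 with weights. Calls over all genes went with weights from 2939 to 5889 in HC minus LC and from 2917 to 6590 in HC minus MC. They were 1379 in HC minus LC and 2322 of 3894 in MC minus LC with LC3 alone, 1039 in HC minus MC with the covariate, 1753 in HC minus LC without HC3, and 1660, 1689, 1789 and 1596 in HC minus MC without MC1, MC2, HC2 and HC3. Fewer samples enter where libraries are left out, and for the other settings the cause was not tested.

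Diets share replicate numbers, and deviations of same-numbered libraries correlated over 0.1 in 6 of 9 pairs (-0.076 to 0.50). Correlations between differently numbered libraries ran from -0.49 to 0.31. Of 9 libraries 7 correlated best with their own number, a hint that leaves the pairing undecided. The main fit took no account of replicate numbers. With the replicate block the mitochondrial calls were 5 in HC minus LC and 6 in MC minus LC, and the cytosolic calls 11 in HC minus MC. Calls over all genes with the block were 3751 in HC minus LC, 4613 in MC minus LC and 3871 in HC minus MC, against 2939, 3894 and 2917.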
